A study of Homo sapiens with 6 samples.

Results

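The KLF transcription factors described here are 10 genes of the Krüppel-like factor family, KLF2, KLF3, KLF4, KLF5, KLF6, KLF7, KLF9, KLF10, KLF11 and KLF13. They were taken by name from a table of 60675 genes, and all 10 were found and passed the filter on low counts. RNA sequencing was done on HCT116, an established human colon cancer cell line, in 3 groups of 2 libraries. The siPIR group was labelled as a Pirin knockdown by transient small interfering RNA (48 h), the SP2509 group as wild type cells given 3 uM SP2509 for 48 h, and the last group as untreated wild type cells. SP2509 is a compound that blocks LSD1, a histone demethylase encoded by KDM1A, and Pirin, the product of PIR, is a nuclear iron-binding protein. The treatment label of the siPIR libraries also names SP2509, so whether those cells also received the compound is not settled by the labels. No library is labelled as carrying a non-targeting small interfering RNA, so an effect of transfection cannot be told apart from one of Pirin loss. DMSO is named in the treatment protocol, and it is unclear from the labels if untreated cells were given it. Nothing in the labels says that replicates came from separate cultures, so p-values measure only the spread between these libraries, which may be technical. The sample descriptions also carry a number that is not explained. The numbers of the siPIR libraries match those of the other groups only in part.

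Krüppel-like factors bind GC-rich and CACCC-type DNA elements through zinc fingers at their carboxyl end, and they share this preference with the SP proteins. The rest of each protein decides its partners. Some members recruit acetyltransferases and activate genes, KLF3 recruits the CtBP corepressors, and KLF9, KLF10, KLF11 and KLF13 carry a motif that binds the corepressor SIN3A. In the gut epithelium KLF4 is known from the differentiated cells that have left the cell cycle and KLF5 from the dividing cells of the crypt.

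The libraries held between 22622441 and 28816590 counts, which sets the level of 3 counts at 0.104 to 0.133 CPM (counts scaled to a common library size). PIR had 37 and 39 counts in siPIR libraries, 377 and 305 in SP2509 libraries and 519 and 462 in untreated libraries, and its log2 fold change in siPIR against untreated was -2.87 (SE 0.175, edgeR adjusted p = 3.39e-09, and -2.0 with the offset for GC content described in this paragraph). KDM1A, whose product the compound inhibits, differed by -0.43 on the log2 scale in SP2509 against untreated (SE 0.092, edgeR adjusted p = 0.00117). Replicates differed most within siPIR, where chi-square per degree of freedom over genes was 17.4, against 6.57 within SP2509 and 4.1 within untreated libraries, and 1 pooled spread served all tests. The siPIR libraries stood apart from the other 4. Their count-weighted GC content was 42.3% and 42.8%, against 48.3% to 48.7% in SP2509 and untreated libraries. Genes with 35 to 40% GC in their longest transcript had, in siPIR against untreated, a median log2 fold change of 1.86, and genes with 65% GC or more had a median of -5.83. The medians of all GC bands in SP2509 against untreated lay between -0.33 and 0.07. Fold changes of the KLF genes in siPIR are therefore given as fitted and also with an offset that removes a smooth trend on GC content and transcript length from each library. The part of this trend in the fitted values was not tested. Of 7 colorectal epithelial markers, CDX1 was at 0 in every library and VIL1 had 0 to 14 counts. The summed level of the list was 1260 to 1270 CPM in siPIR, 3180 to 3230 CPM in SP2509 and 2890 to 2920 CPM in untreated libraries. Its members went both ways in siPIR against untreated. CDX2 was at -3.47, KRT8 at -2.87 and KRT18 at -2.55 (-1.32, -0.74 and -0.55 with the offset). EPCAM was at 1.75 and CDH1 at 0.61 (1.73 and 0.82 with the offset). Summed leukocyte markers stayed between 0.26 and 1.18 CPM and endothelial markers between 0.388 and 1.82 CPM. Summed fibroblast markers were at 1.62 to 2.03 CPM in siPIR, 20.7 to 21.9 CPM in SP2509 and 22.4 to 25.4 CPM in untreated libraries, with COL1A2 at 0 in all of them. COL1A1, with 61.1% GC, carried most of that sum and was at -4.1 as fitted and -0.77 with the offset in siPIR against untreated.

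Promoter sequences from RefSeq (GRCh38.p14) were matched to 8 of the 10 genes, in 13 windows of 250 bases before an annotated start. KLF3 and KLF10 were not matched. The 5 stretches printed here belong to the 3 genes with the largest fold changes in SP2509 cells, KLF4, KLF6 and KLF11, and to KLF13 and KLF2, which did not pass the test there. They were chosen with those values known. Each is written 5′ to 3′ on the strand of its gene and leaves out bases inside an annotated exon of that gene. Capitals mark the GC box (GGGCGG), the CCAAT box (CCAAT) and the core of the cyclic AMP response element (TGACG), on either strand.
KLF4 (chr9:107489770-107490019, minus strand): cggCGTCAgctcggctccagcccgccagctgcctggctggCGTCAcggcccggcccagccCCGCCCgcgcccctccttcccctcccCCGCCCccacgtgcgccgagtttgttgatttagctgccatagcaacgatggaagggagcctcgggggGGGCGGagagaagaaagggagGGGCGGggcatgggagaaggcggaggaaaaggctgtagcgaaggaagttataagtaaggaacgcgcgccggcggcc
KLF6 (chr10:3785282-3785459, minus strand): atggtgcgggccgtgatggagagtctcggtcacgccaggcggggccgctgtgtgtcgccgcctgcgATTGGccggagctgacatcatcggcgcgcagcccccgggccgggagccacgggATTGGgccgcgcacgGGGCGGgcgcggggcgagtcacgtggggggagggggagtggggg
KLF11 (chr2:10043971-10044174, plus strand): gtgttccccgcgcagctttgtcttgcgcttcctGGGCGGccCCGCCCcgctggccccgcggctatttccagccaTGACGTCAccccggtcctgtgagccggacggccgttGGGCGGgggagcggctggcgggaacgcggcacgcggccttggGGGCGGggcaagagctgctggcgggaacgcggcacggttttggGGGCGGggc
KLF13 (chr15:31326585-31326834, plus strand): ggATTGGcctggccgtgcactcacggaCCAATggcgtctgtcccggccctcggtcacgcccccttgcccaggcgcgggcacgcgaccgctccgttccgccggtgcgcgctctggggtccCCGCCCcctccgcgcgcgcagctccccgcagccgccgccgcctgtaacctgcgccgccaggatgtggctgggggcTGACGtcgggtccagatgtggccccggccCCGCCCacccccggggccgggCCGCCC
KLF2 (chr19:16324576-16324816, plus strand): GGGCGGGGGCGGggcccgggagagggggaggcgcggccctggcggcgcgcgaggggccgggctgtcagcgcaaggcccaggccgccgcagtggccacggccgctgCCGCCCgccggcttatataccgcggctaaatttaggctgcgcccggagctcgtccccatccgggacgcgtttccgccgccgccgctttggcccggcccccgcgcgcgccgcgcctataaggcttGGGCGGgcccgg

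Positions count from the RefSeq start used for each stretch. The KLF4 stretch held cyclic AMP response element cores at -247 and -210 and GC boxes at -190, -164, -97 and -76. The KLF6 stretch held CCAAT boxes at -184 and -131 and a GC box at -116. In the KLF11 stretch 2 cores at -176 and -173 overlapped on opposite strands, among 5 GC boxes. The KLF13 stretch held CCAAT boxes, a core and GC boxes, while the KLF2 stretch held GC boxes alone. The motifs were thus found both in genes that rose in SP2509 cells and in genes that did not pass the test. Of the 13 windows 8 held a GC box, 6 a CCAAT box and 4 a core, and several windows belong to the same gene. Of 35116 RefSeq promoter windows of the same length, 42.6% held a GC box, 32% a CCAAT box and 21.2% a core. The GC content of the 5 full windows was 69.2% for KLF4, 72.4% for KLF6, 74.4% for KLF11, 78.8% for KLF13 and 80.0% for KLF2, and the median over all windows was 58.0%. The AP-1 letters TGANTCA were in none of the 13 windows and in 6.57% of all windows. The CACCC-type letters CCACCC, not capitalized as such above, were in 2 of the 13 windows and in 31.3% of all windows. The KLF13 window held them at -23. These matches describe letters in a window and do not show binding.

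Levels of the 10 genes were compared with each other per kilobase of exon (RPKM), without the GC-length offset. With the offset the siPIR fold against untreated went from 0.898 to 18.7 for KLF2 and from 6.35 to 22 for KLF4. For KLF5 it went from 4.42 to 4.3. Ranks, shares and sums in siPIR cells therefore depend on the treatment of GC content. In siPIR cells KLF5 was at 161 ± 37.6 RPKM and KLF10 at 124 ± 29.4 RPKM (SD, n = 2), and the libraries of the 2 genes overlapped. KLF3 (59.7 RPKM), KLF4 (49.1 RPKM) and KLF6 (44 RPKM) followed, and the other 5 lay between 6.38 and 11.5 RPKM. In SP2509 cells KLF5 (69.2 ± 5.7 RPKM) and KLF6 (67.4 ± 0.575 RPKM) led with overlapping libraries, and KLF4 came next at 51.3 ± 1.84 RPKM. In untreated cells KLF5 was highest at 36.4 ± 2.17 RPKM, above KLF10 at 24.7 ± 0.727 RPKM and KLF6 at 16.2 ± 0.221 RPKM. KLF5 thus had the highest mean in all 3 groups without the offset. KLF4 ranked 4 in siPIR, 3 in SP2509 and 7 in untreated cells, and its share of the summed KLF level was 10.2%, 16.8% and 6% in that order of groups. KLF11 was last in untreated cells at 1.77 ± 0.278 RPKM, where its libraries overlapped those of KLF9 (1.83 ± 0.162 RPKM). KLF13 and KLF2 overlapped in untreated and in SP2509 cells. The summed level of the 10 genes was 537 and 429 RPKM in siPIR libraries, 307 and 304 RPKM in SP2509 libraries and 130 and 128 RPKM in untreated libraries. Every siPIR and SP2509 library thus had a higher sum than both untreated libraries. In bulk RNA, more cells expressing a gene and more RNA per cell cannot be told apart.

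**Figure D1:**
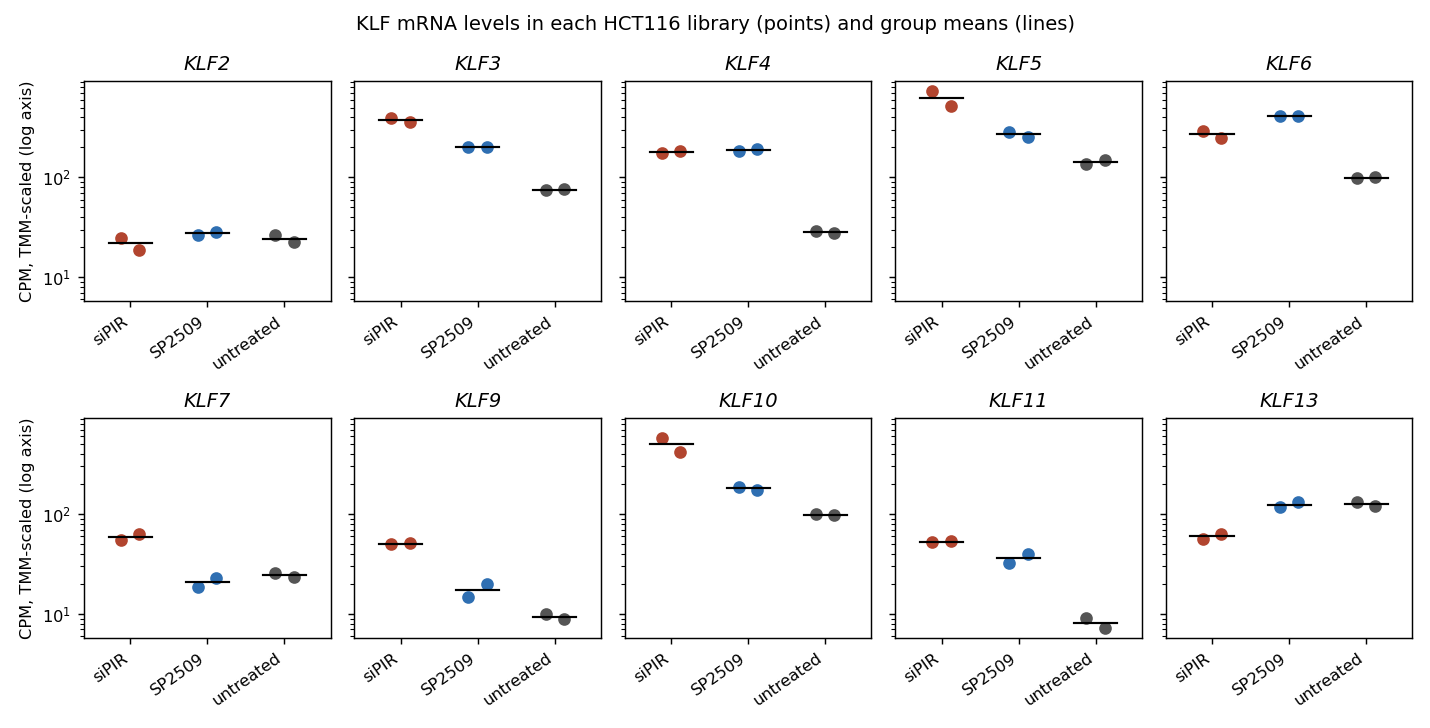
Level of each of the 10 KLF genes in every library, in CPM on a log axis, with siPIR, SP2509 and untreated libraries shown from left to right and points for single libraries. KLF4 lies at 177 and 182 CPM in siPIR, 183 and 192 CPM in SP2509 and 29.1 and 27.5 CPM in untreated libraries, while KLF13 is lowest in the siPIR libraries.

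In siPIR against untreated cells, 8 of the 10 genes were higher, KLF13 was lower and KLF2 did not pass the test. Of the 16503 genes tested, 39.3% were higher and 46.9% were lower in this comparison by the same rule (edgeR adjusted p under 0.05), 86.1% in all. Higher genes made up 45.6% of the calls with TMM scaling and 33.9% with total counts alone. The 10 genes had a median log2 fold change of 2.23, against -0.28 for all genes tested. With the GC-length offset all 10 genes were higher, beside 32.8% of all genes higher and 32.2% lower (65% in all), and the median was 2.15 beside -0.04.

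In SP2509 against untreated cells, 7 of the 10 genes were higher and none was lower, and KLF2, KLF7 and KLF13 did not pass the test. By unadjusted p under 0.05 the count of lower genes was also 0, DESeq2 gave 0 and the offset gave 1, KLF7. Of all genes tested, 33.5% were higher and 35.1% were lower, 68.6% in all. Higher genes made up 48.8% of the calls with TMM scaling. That share was 36.2% by the upper quartile and 28.3% by total counts, and KLF7 and KLF13 were called lower under both of these. The 10 genes had a median log2 fold change of 0.91, against -0.04 for all genes. With the offset 8 were higher and 1 was lower, beside 38.5% and 34.6% of all genes (73.1% in all). Both comparisons use the same 2 untreated libraries, so their values are set side by side and are not independent of each other.

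KLF4 (ENSG00000136826, chromosome 9, 107484852 to 107490482, minus strand) is the gut-enriched factor that restrains the cell cycle in differentiated epithelium. Its level was 177 and 182 CPM in siPIR libraries, 183 and 192 CPM in SP2509 libraries and 29.1 and 27.5 CPM in untreated libraries. All 4 siPIR and SP2509 libraries lay far above both untreated ones. The log2 fold change in SP2509 against untreated was 2.73 (SE 0.101, edgeR adjusted p = 7.13e-10), a 6.63-fold difference and the largest of the 10 genes there. For siPIR it was 2.67 (SE 0.101, edgeR adjusted p = 6.21e-11), while genes of its GC band, 50 to 55%, had a median of -1.18. KLF4 lies at the upper edge of that band, and the band of 55 to 60% had a median of -2.61. With the offset the siPIR value was 4.46 (edgeR adjusted p = 1.49e-20).

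KLF5 (ENSG00000102554, chromosome 13, 73054976 to 73077542, plus strand) is the intestinal-enriched factor that promotes proliferation in crypt cells. Its level was 731 and 523 CPM in siPIR, 285 and 254 CPM in SP2509 and 136 and 148 CPM in untreated libraries. The 3 groups did not overlap, and the siPIR libraries were the highest and the farthest apart from each other. The log2 fold change was 2.14 in siPIR against untreated (SE 0.145, edgeR adjusted p = 9.6e-09) and 0.93 in SP2509 against untreated (SE 0.141, edgeR adjusted p = 7.51e-05). The offset left the siPIR value at 2.1, and the median of genes with 45 to 50% GC, the band of KLF5, was 0.06.

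KLF6 (ENSG00000067082, chromosome 10, 3775996 to 3785281, minus strand) is a widely expressed activator with growth-suppressing activity. Its level was 291 and 249 CPM in siPIR, 416 and 411 CPM in SP2509 and 98.4 and 100 CPM in untreated libraries. It was highest in SP2509 cells, with no overlap between any pair of groups. The log2 fold change was 1.44 in siPIR (SE 0.105, edgeR adjusted p = 1.95e-08, 1.15 with the offset) and 2.06 in SP2509 against untreated (SE 0.106, edgeR adjusted p = 9.3e-09).

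KLF7 (ENSG00000118263, chromosome 2, 207074137 to 207167267, minus strand) is known in mice for its part in neuronal development. Its level was 54.4 and 63.7 CPM in siPIR, 18.5 and 22.9 CPM in SP2509 and 25.6 and 23.2 CPM in untreated libraries. The siPIR libraries lay above all others, and both SP2509 libraries lay below both untreated ones by a small margin. Against untreated cells the siPIR log2 fold change was 1.27 as fitted (SE 0.124, edgeR adjusted p = 4.26e-07) and 0.47 with the offset (edgeR adjusted p = 0.000669), beside a median of 1.08 in its GC band of 40 to 45%. The SP2509 value was -0.24 with a 95% interval of -0.52 to 0.04 and did not pass (edgeR adjusted p = 0.11). It passed with the offset, at -0.28 (edgeR adjusted p = 0.0331), and in 6 of the other alternatives run.

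KLF2 (ENSG00000127528, chromosome 19, 16324817 to 16327874, plus strand) is known in mice for maintaining quiescence in T cells and acts in endothelial cells as a flow-responsive factor. Its level was 24.9 and 18.8 CPM in siPIR, 26.6 and 28.5 CPM in SP2509 and 26.3 and 22.3 CPM in untreated libraries. The siPIR and untreated libraries overlapped, and both SP2509 libraries lay just above the untreated ones. Against untreated cells the log2 fold change was -0.16 in siPIR (95% interval -0.45 to 0.14, edgeR adjusted p = 0.301), and 0.18 in SP2509 (95% interval -0.11 to 0.47, edgeR adjusted p = 0.246). The SP2509 value passed with the offset, at 0.48 (edgeR adjusted p = 0.0473). KLF2 has the highest GC content of the 10 genes, 65.2%, and the median in its band was -5.83 in siPIR against untreated. It lies at the lower edge of that band, and the band of 60 to 65% had a median of -4.11. With the offset its siPIR value was 4.23 (edgeR adjusted p = 2.14e-07), so its call in siPIR cells turns on the treatment of GC content. It was called lower there by upper-quartile or total-count scaling.

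KLF3 (ENSG00000109787, chromosome 4, 38664196 to 38701042, plus strand) is the CtBP-recruiting repressor of the family. Its level was 396 and 355 CPM in siPIR, 200 and 201 CPM in SP2509 and 74.7 and 76 CPM in untreated libraries. The groups did not overlap and their order was siPIR, SP2509, untreated. Against untreated cells the log2 fold change was 2.32 in siPIR (SE 0.101, edgeR adjusted p = 1.74e-10) and 1.41 in SP2509 (SE 0.099, edgeR adjusted p = 1.05e-07). KLF3 has the lowest GC content of the 10 genes, 41.5%, and its siPIR value was 1.13 with the offset. It overlaps an antisense gene, KLF3-AS1, over 266 bases, and no source used here gives the strand setting of the counting. That gene had 12 to 28 counts per library.

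**Figure D2:**
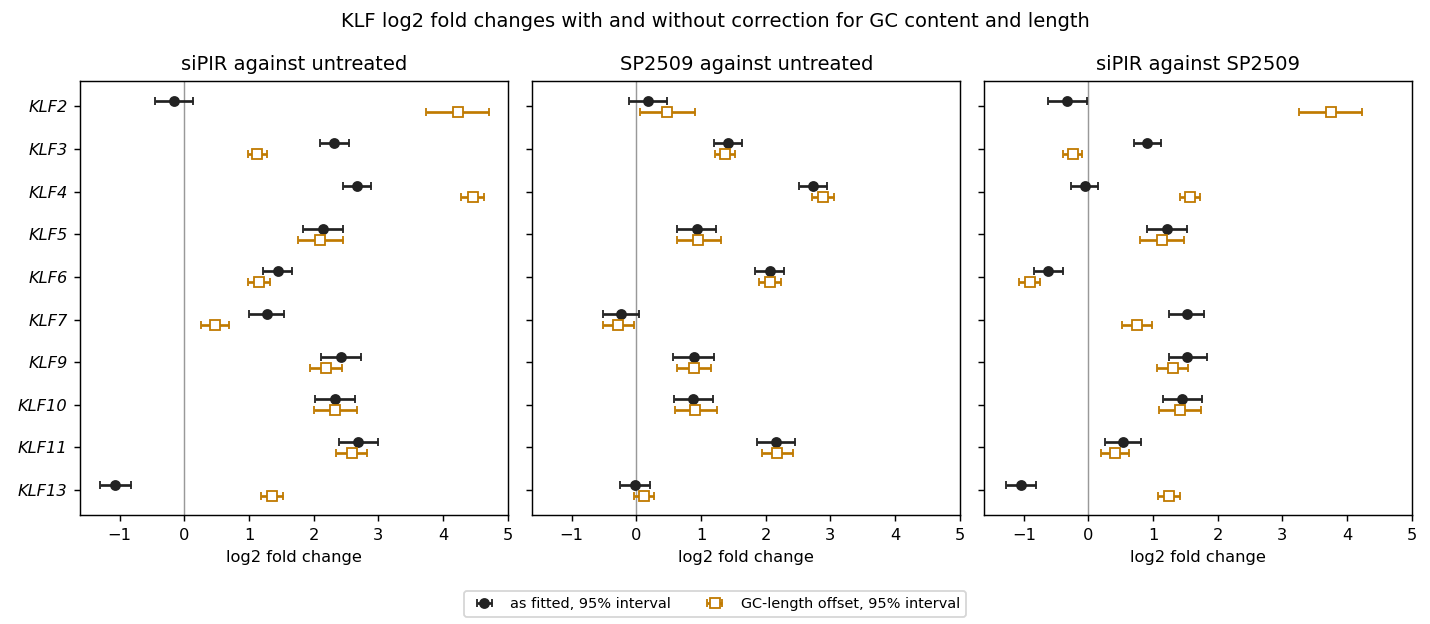
Log2 fold changes of the 10 KLF genes in the 3 comparisons, as fitted and with the GC-length offset, with bars for 95% intervals. The offset turns the sign of KLF2 and KLF13 in siPIR against untreated and of KLF2, KLF3, KLF4 and KLF13 in siPIR against SP2509, and in SP2509 against untreated it turns KLF13, at -0.02 as fitted, to 0.11.

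KLF9 (ENSG00000119138, chromosome 9, 70384597 to 70414624, minus strand) is a SIN3A-binding repressor induced by glucocorticoid and thyroid hormones. Its level was 49.9 and 51.5 CPM in siPIR, 14.8 and 20.1 CPM in SP2509 and 10 and 8.85 CPM in untreated libraries. The siPIR libraries were several times higher than the others, and the SP2509 libraries lay above the untreated ones. The log2 fold change was 2.42 in siPIR (SE 0.141, edgeR adjusted p = 2.13e-09, 2.19 with the offset) and 0.89 in SP2509 against untreated (SE 0.144, edgeR adjusted p = 0.000133).

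KLF10 (ENSG00000155090, chromosome 8, 102648779 to 102655902, minus strand) is an early-response gene of TGF-beta signalling. Its level was 582 and 415 CPM in siPIR, 188 and 175 CPM in SP2509 and 101 and 97 CPM in untreated libraries. The order of the groups was that of KLF5, again with the siPIR libraries farthest apart. The log2 fold change was 2.33 in siPIR (SE 0.142, edgeR adjusted p = 3.4e-09, 2.33 with the offset) and 0.88 in SP2509 against untreated (SE 0.137, edgeR adjusted p = 9.63e-05).

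KLF11 (ENSG00000172059, chromosome 2, 10042849 to 10054836, plus strand) is the closest relative of KLF10 and is also induced by TGF-beta. Its level was 52.1 and 53.5 CPM in siPIR, 32.5 and 40.3 CPM in SP2509 and 9.04 and 7.24 CPM in untreated libraries. The untreated libraries were well below the other 4, and the siPIR libraries were the highest. The log2 fold change was 2.69 in siPIR (SE 0.139, edgeR adjusted p = 7.04e-10, 2.59 with the offset), the largest of the 10 genes as fitted, and 2.16 in SP2509 against untreated (SE 0.138, edgeR adjusted p = 5.09e-08). KLF11 overlaps AC104794.4 on the other strand over 416 bases, and that gene had 0 counts in every library.

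KLF13 (ENSG00000169926, chromosome 15, 31326855 to 31435665, plus strand) is known as a regulator of CCL5 in T cells. Its level was 56.6 and 63.4 CPM in siPIR, 117 and 131 CPM in SP2509 and 132 and 120 CPM in untreated libraries. The siPIR libraries lay below all others, and SP2509 and untreated libraries overlapped. In SP2509 against untreated the log2 fold change was -0.02, with a 95% interval of -0.25 to 0.21 (edgeR adjusted p = 0.862). In siPIR against untreated it was -1.07 (SE 0.109, edgeR adjusted p = 6.75e-07), while the median of genes with 55 to 60% GC was -2.61. With the offset it was 1.35 (edgeR adjusted p = 1.31e-12), the opposite direction.

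**Figure D3:**
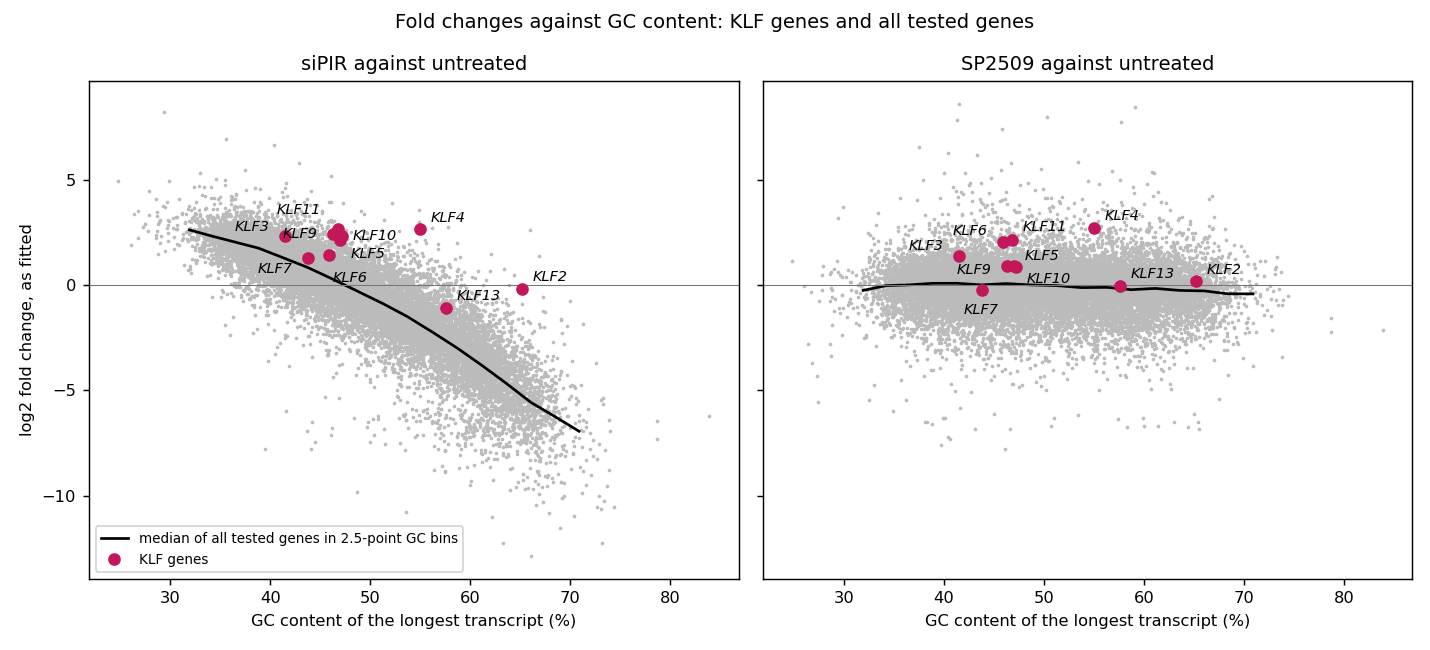
Log2 fold change as fitted against the GC content of the longest transcript for all tested genes (grey) and the 10 KLF genes (coloured), with a line for the median of all tested genes in GC bins, for siPIR against untreated (left) and SP2509 against untreated (right). The siPIR median falls steeply with GC content and all 10 KLF genes lie above it, while the SP2509 median stays near 0.

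The 2 conditions were also set against each other. In siPIR against SP2509, 6 of the 10 genes were higher, 3 were lower and KLF4 did not pass, beside 38.8% of all genes higher and 45.5% lower (84.3% in all). KLF9 averaged 50.7 CPM in siPIR and 17.5 CPM in SP2509 cells, a difference of 1.53 on the log2 scale (SE 0.136, edgeR adjusted p = 1.61e-07, 1.3 with the offset). KLF10 was higher by 1.45 (SE 0.138, edgeR adjusted p = 3.44e-07, 1.42 with the offset) and KLF5 by 1.22 (SE 0.141, edgeR adjusted p = 2.61e-06, 1.14 with the offset). KLF7 was higher by 1.52 as fitted (SE 0.127, edgeR adjusted p = 9.68e-08), a 2.86-fold difference, and by 0.75 with the offset, a 1.68-fold difference (edgeR adjusted p = 5.28e-06). KLF6 was the member higher in SP2509 cells under both treatments of GC content, at -0.62 as fitted (SE 0.102, edgeR adjusted p = 8.33e-05) and -0.91 with the offset. KLF4 differed by -0.06 with a 95% interval of -0.27 to 0.14 (edgeR adjusted p = 0.538) as fitted, and by 1.57 with the offset (edgeR adjusted p = 1.96e-14). KLF3 was higher in siPIR as fitted (0.91, SE 0.0972, edgeR adjusted p = 1.19e-06) and lower with the offset (-0.24, edgeR adjusted p = 0.00363). KLF2 (-0.33) and KLF13 (-1.05) were lower as fitted and higher with the offset (3.75 and 1.24). The call on KLF2 (edgeR adjusted p = 0.0384) was lost in 8 alternatives. KLF11 differed by 0.54 (SE 0.125, edgeR adjusted p = 0.0014, 0.41 with the offset), and the call as fitted was lost without SP2509 replicate 1 (edgeR adjusted p = 0.0519). With the offset 8 genes were higher and 2 were lower, beside 32.6% and 37% of all genes (69.6% in all).

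Of 7 other KLF genes, 5 were tested. In SP2509 against untreated 1 was higher and 2 were lower, beside 33.5% and 35.1% of all genes. Their median there was -0.32. KLF16 was the higher one, at 1.37 (SE 0.117, edgeR adjusted p = 5.28e-07), and KLF8, known as a repressor that recruits CtBP, was lower at -0.9 (SE 0.206, edgeR adjusted p = 0.00177). In siPIR against untreated 2 were higher and 3 lower as fitted, beside 39.3% and 46.9% of all genes. None passed with the offset in either direction, beside 32.8% of all genes higher and 32.2% lower. KLF16 shows the size of the shift there, at -4.99 as fitted and -0.12 with the offset. Of 9 genes of the SP family, which bind the same GC-rich elements, 8 were tested, beside the same shares of all genes. In siPIR 4 SP genes were higher and 3 lower as fitted, and 5 were higher and 1 lower with the offset. In SP2509 against untreated 3 SP genes were higher and 3 lower. SP5, a target of Wnt signalling, was at -2.37 in SP2509 (SE 0.246, edgeR adjusted p = 2.82e-06) and SP2 at 1.09 (SE 0.12, edgeR adjusted p = 5.01e-06).

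Among 10 cofactors that KLF proteins recruit, 7 were higher and 1 lower in SP2509 against untreated, beside 33.5% and 35.1% of all genes. Their median there was 0.45. The acetyltransferase gene CREBBP was at 1.19 (SE 0.0979, edgeR adjusted p = 3.74e-07) and the corepressor gene SIN3B at 0.81 (SE 0.0937, edgeR adjusted p = 6.91e-06). In siPIR against untreated 3 cofactors were higher and 6 lower as fitted, beside 39.3% and 46.9% of all genes. With the offset 5 cofactors were higher and 2 lower, beside 32.8% and 32.2%. Of 7 ubiquitin ligases that act on KLF proteins, 4 were higher and 1 was lower in siPIR against untreated as fitted, beside 39.3% and 46.9% of all genes, and 4 were higher and 3 lower with the offset, beside 32.8% and 32.2%. In SP2509 against untreated 5 were higher and 0 lower, beside 33.5% and 35.1% of all genes. FBXW7, whose product targets KLF5 for degradation, was at 2.19 in siPIR (SE 0.105, edgeR adjusted p = 3.79e-10, 1.87 with the offset) and at 1.49 in SP2509 (SE 0.104, edgeR adjusted p = 1.01e-07). It was among the genes that rose in both comparisons, as KLF5 itself was.

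Of 15 genes that act upstream of KLF genes, such as SMAD, MEF2 and hormone receptor genes, 10 were higher and 4 lower in siPIR as fitted, beside 39.3% and 46.9% of all genes. With the offset 11 were higher and 1 lower in siPIR, beside 32.8% and 32.2% of all genes. In SP2509 against untreated 11 were higher and 3 lower, beside 33.5% and 35.1% of all genes. SMAD3, a transducer of TGF-beta signals, was at 1.93 in SP2509 (SE 0.103, edgeR adjusted p = 1.24e-08), and SRF, the serum response factor gene, was at 1.57 (SE 0.0937, edgeR adjusted p = 2.78e-08). The glucocorticoid receptor gene NR3C1 was at 2.22 in siPIR as fitted (SE 0.102, edgeR adjusted p = 2.51e-10) and at 0.57 with the offset. The thyroid hormone receptor gene THRA went the other way as fitted, at -3.1 in siPIR (SE 0.15, edgeR adjusted p = 3.9e-10). With the offset THRA was at 0 (edgeR adjusted p = 0.988). Of 14 genes reported as KLF targets 11 were tested, beside the same shares of all genes. In siPIR 6 targets were higher and 4 lower as fitted, and 7 were higher and 3 lower with the offset. In SP2509 5 targets were higher and 4 lower. CDKN1A, a cell-cycle inhibitor gene activated by KLF4, was at 1.58 in SP2509 (SE 0.134, edgeR adjusted p = 4.89e-07). CCNB1, a cyclin gene repressed by KLF4, was at -1.37 in SP2509 (SE 0.0947, edgeR adjusted p = 9.57e-08). In siPIR against untreated CCNB1 was at -0.22 as fitted and -1.02 with the offset. CCND1, another cyclin gene of the list, was at 0.02 in SP2509 (edgeR adjusted p = 0.9). It was at 1.5 in siPIR as fitted and 2.09 with the offset. The targets with the smallest adjusted p in siPIR against untreated were FASN and CDKN1B. FASN was at -7 (SE 0.189, edgeR adjusted p = 1.18e-11, -2.75 with the offset). CDKN1B was at 2.19 (SE 0.103, edgeR adjusted p = 3.15e-10, 2.29 with the offset). A link of any of these genes to KLF4 was not tested in these cells.

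Beside the all-gene median of -0.04 in SP2509 against untreated, the median log2 fold change was 0.13 for the SP family, 0.77 for the ubiquitin ligases, 0.95 for the upstream genes and 0.16 for the targets. In siPIR cells the medians as fitted stood beside -0.28 for all genes. They were -2.03 for the other KLF genes, 0.55 for the SP family, -0.6 for the cofactors, 1.34 for the ligases, 1.13 for the upstream genes and 0.47 for the targets. The offset brought these to -0.12, 0.39, 0.38, 0.29, 0.73 and 0.8, beside -0.04 for all genes. The other KLF genes had a median GC content of 57.8%. CDKN1A, given here after its values were seen, was among the genes whose sign turned, at -0.48 in siPIR as fitted (SE 0.133, edgeR adjusted p = 0.00452) and 2.17 with the offset. In siPIR against SP2509 as fitted, beside 38.8% of all genes higher and 45.5% lower, 8 upstream genes were higher and 7 lower, 4 ligases were higher and 3 lower, 3 cofactors were higher and 7 lower, and 4 targets were higher and 4 lower. With the offset, beside 32.6% of all genes higher and 37% lower, 4 upstream genes were higher and 7 lower, 3 ligases were higher and 4 lower, 2 cofactors were higher and 5 lower, and 6 targets were higher and 3 lower. These counts cover few genes, and no list was tested as a set.

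**Figure D4:**
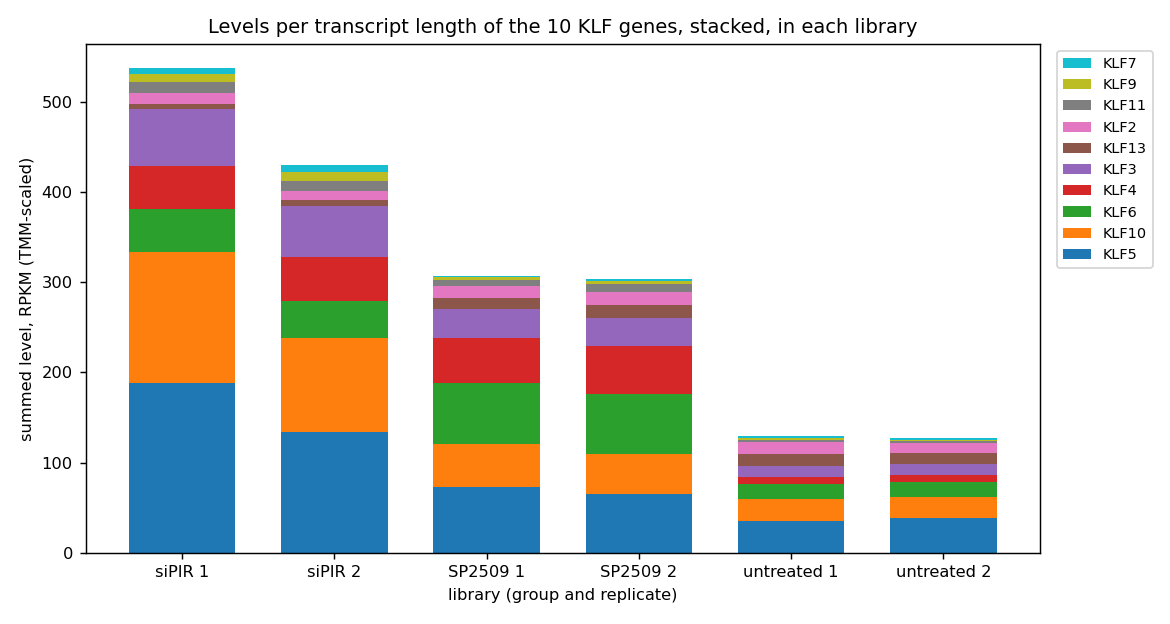
Summed level of the 10 KLF genes in each library in RPKM, stacked by gene, for siPIR, SP2509 and untreated libraries from left to right. Levels are shown without the GC-length offset. The sums are 537 and 429 RPKM in siPIR, 307 and 304 RPKM in SP2509 and 130 and 128 RPKM in untreated libraries, and KLF5 and KLF10 hold 33.3% and 25.8% of the mean siPIR sum.

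Profiles over the 6 libraries were compared by the root mean square difference of centred log2 CPM, a measure that describes likeness over only 3 groups. Among the 10 genes KLF5 and KLF10 were the most alike pair (0.115), followed by KLF9 and KLF10 (0.227) and KLF3 and KLF5 (0.228). KLF4 and KLF11, the pair with the largest SP2509 fold changes, differed by 0.295, and KLF4 and KLF13 were the least alike at 1.58. Among all genes tested, the nearest profile to KLF3 was SLMAP (0.032), to KLF6 TMEM87A (0.0414), to KLF10 NT5C3A (0.045) and to KLF5 RAP1A (0.0467). The nearest to KLF13 was KIAA2013 (0.0543), to KLF7 ATP5S (0.0719), to KLF2 KCTD1 (0.0876), to KLF11 NT5E (0.0932), to KLF9 ANKRD20A1 (0.0955) and to KLF4 FGD6 (0.107). FGD6 has a GC content of 40% and KLF4 one of 55%, so the nearest profile to KLF4 came from a gene whose GC band moved the other way in siPIR cells.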

How the data were processed

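A single table with estimated counts of 60675 genes was deposited, in which 11% of values were not whole. FastQC 0.11.8, Trimmomatic 0.32, HISAT2, featureCounts, Subread 1.6.2, edgeR 3.26.4 and GRCh38 are named per the submitters' processing notes. No source used here gives the annotation release, the strand setting or the rule for fractional counts. Libraries were directional, from total RNA, per the labels' protocols. Counts were rounded, filtered with filterByExpr and scaled by TMM. A model of 3 groups over 6 libraries used edgeR 4.0.16 in R 4.3.3 and the robust quasi-likelihood test, with 3 residual degrees of freedom. Benjamini-Hochberg adjustment covered the 16503 genes that passed the filter, and the threshold was 0.05. CPM values are TMM-scaled, and RPKM divides them by the union exon length in GENCODE 29, in which 57055 identifiers were found. The GC-length offset fitted each library's deviation from the mean of all libraries on transcript GC content and length (log2), by natural splines with 5 df for each, over 16345 genes, and can also remove biological differences that follow GC content. The test and the offset were run on simulated counts in which few genes changed. In siPIR against untreated 86.1% of genes were called, so the simulation does not show how they perform on such data. Intervals of fold changes come from the edgeR fit and include the spread between libraries, while the level of 3 counts covers counting error only. Alternatives were DESeq2 1.42.0, other scalings and filters, blocks, the offset and leaving out each library. All 10 KLF genes are named, and of each other list at most the 2 with the smallest adjusted p in a comparison. Cell type markers, PIR and KDM1A were named outside this rule, as were CDKN1A and CCNB1 in siPIR against untreated. CCND1 was also named outside it, in siPIR and SP2509 against untreated. The members and lists were chosen with earlier results of these data known.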

Additional observations from a re-analysis of the deposited data

How the results depend on the processing

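Over all alternatives, 470 values of single KLF genes kept their direction and side of the threshold, 15 came to pass, 9 no longer passed and 16 turned sign. KLF genes higher stayed at 8 in siPIR and 7 in SP2509 against untreated, except 10 and 8 with the offset. KLF genes lower in siPIR against untreated (1 as reported) numbered 2 with upper-quartile scaling, total counts or the description-number block, 0 with the offset, and 1 to 2 when each library was left out (2 without siPIR replicate 1). KLF genes lower in SP2509 against untreated (0 as reported) numbered 2 with upper-quartile scaling or total counts, 1 with only the 4 samples compared, the description-number block or the offset, and 0 to 1 when each library was left out (1 without either siPIR library). Over all genes the median for SP2509 against untreated was -0.04 by TMM, -0.27 by the upper quartile and -0.43 by total counts. For siPIR against untreated it was -0.28, -0.45 and -0.89 in the same order.

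Signs turned in siPIR against untreated for KLF2 (4.23 with the offset, -0.35 to 0.06 on leaving out libraries, 0.055 without siPIR replicate 2) and KLF13 (1.35 with the offset). In SP2509 against untreated they turned for KLF2 (-0.055 with upper-quartile scaling, -0.21 with total counts) and KLF13 (0.00012 with DESeq2 size factors, 0.00013 with DESeq2, 0.11 with the offset, -0.096 to 0.075 on leaving out libraries, 0.075 without SP2509 replicate 1, 0.061 without untreated replicate 1). In siPIR against SP2509 they turned for KLF4 (0.058 with DESeq2 size factors or DESeq2, 1.57 with the offset), KLF2 (3.75), KLF3 (-0.24) and KLF13 (1.24), the last 3 with the offset. The cause was not tested.

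With the replicate block 14136, 11179 and 13816 genes were called in siPIR against untreated, SP2509 against untreated and siPIR against SP2509, and no KLF count changed. Deviations of libraries with the same replicate number correlated at -0.04 to 0.08 between groups, so they shared little over the genes. Each group gives only a single difference between replicates, so these values cannot decide whether the samples were paired. Pairing of the siPIR libraries by the number in the descriptions was not tested in this way.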
